A study of Mus musculus with 42 samples.

Results

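The collagen genes were the 40 genes on the array whose symbol reads Col, a number, a and a number, out of 27745 gene names represented in all, and they were examined in liver, quadriceps muscle and visceral fat. By the structure of their products they comprised 11 fibrillar collagens, 6 type IV collagens of the basement membrane, 2 multiplexins (types XV and XVIII, found at basement membrane zones), 3 beaded filament type VI collagens, 9 fibril-associated collagens (FACIT), 3 network-forming short chain collagens, 4 transmembrane collagens and 2 others, types VII and XXVIII. Where several probes carried the same symbol, the brightest over all arrays stood for the gene.

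RNA of female wild-type and Akt1+/- mice was hybridised on 42 one-colour Agilent arrays, 14 for each tissue. The Akt1+/- mice carried 1 inactivated copy of Akt1, a kinase of the insulin/IGF1 pathway, in every cell from conception, on a C57BL/6 background shared with the wild-type mice. Younger mice (8 weeks) gave 3 arrays of each genotype in a tissue, and older mice (35 weeks) gave 4. The labels number the arrays of a group without saying which mouse each came from, so the p-values measure the spread between these arrays.

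Collagens are secreted proteins whose chains wind around each other into long rods. Fibrillar types I, III and V assemble into the fibres that give connective tissue its tensile strength, and they are made mainly by fibroblasts and related stromal cells. Type IV collagen forms the sheet-like scaffold of the basement membrane around vessels, muscle fibres and adipocytes. Type VI filaments link cells to the fibres around them, and FACIT collagens sit on the surface of fibrils.

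All levels below are log2 signals relative to the 75th percentile of the same array, and differences are log2 differences estimated with limma, with their standard errors. A gene entered the test of a tissue when 3 or more arrays of some group detected its probe well above background, and it was called at an adjusted p below 0.05 over all genes tested there. The liver test held 29 collagen genes, the muscle test 36 and the fat test 36, and 28 were in all of them. Col10a1, a collagen of growth plate cartilage, was tested in none. The probes used for Col4a3, Col8a2, Col12a1, Col17a1, Col19a1 and Col23a1 were among those below the limit in liver, although another Col12a1 probe was well above background on 6 of 14 liver arrays. Between 57.2% and 69.2% of probes were well above background on each array, and no spot was saturated.

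The targeted gene Akt1 was lower in every Akt1+/- array than in every wild-type array of the same tissue and age. Liver showed a difference of -0.67 ± 0.08 (adjusted p = 0.0025), muscle of -0.58 ± 0.11 (adjusted p = 0.075, which does not pass) and fat of -0.55 ± 0.07 (adjusted p = 0.0069). All 3 hepatocyte markers were well above background on every liver array, all 5 muscle fibre markers on every muscle array and all 5 adipocyte markers on every fat array. Muscle fibre markers were also present in fat, with summed linear levels (where 1 is the array's 75th percentile) of 15.3 to 100.3 against 3214 to 4369 in muscle. One of them, Myh4, a fast myosin, was called higher in fat at 35 weeks (adjusted p = 0.00023 in limma). The summed levels in fat overlapped between the ages, at 15.3 to 100.3 at 8 weeks and 21.2 to 86.4 at 35 weeks. Genotypes shared no slide at 35 weeks in any tissue, nor in liver at 8 weeks, and in fat at 35 weeks they shared no scan day either, so slide, scan day and genotype cannot be told apart there. Within a tissue the 2 ages were never scanned on a common day, so age and scan day cannot be told apart.

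Between 8 and 35 weeks collagen transcripts fell, with the most calls in muscle. Lower levels at 35 weeks were called for 26 of 36 genes in muscle, where 14.4% of all genes tested were called lower, for 18 of 36 in fat, where 9.34% were, and for 12 of 29 in liver, where 15% were; in fat 19.3% of all genes were called in either direction. Higher levels were called for 4 genes in liver, 1 in muscle and none in fat, against 19.7%, 16.8% and 9.95% of all genes. Collagen genes had a median age difference of -0.21 (liver), -0.72 (muscle) and -0.47 (fat), beside 0.01 for all genes in each of the 3 tissues. Since these are bulk tissues, fewer collagen-producing cells and less RNA per cell cannot be told apart. In liver the split between 4 higher and 12 lower genes became 2 and 13 after normexp correction and quantile normalization, and 3 and 17 after scaling to the median, which moved the median of all genes from 0.01 to -0.18.

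In each tissue the 2 most negative age differences among the collagen genes belonged to fibrillar collagens. Col1a1 and Col1a2, which encode the chains of type I collagen, and Col3a1, which encodes type III, were lower at 35 weeks in all 3 tissues. In muscle the level of Col1a1 ran from 4.91 to 5.75 with a median of 5.28 on the 6 arrays at 8 weeks. At 35 weeks the 8 muscle arrays ran from 2.22 to 3.58 with a median of 2.88. The ages did not overlap, and the difference of -2.41 ± 0.16 (adjusted p = 2.4e-06) is a 5.32-fold lower level. In liver Col1a1 ran from -0.45 to 0.44 at 8 weeks (median 0.16) and from -2.21 to -1.38 at 35 weeks (median -1.92), again without overlap. That difference was -1.92 ± 0.17 (adjusted p = 1.8e-05), or 3.78-fold. In fat Col1a1 ran from 5.33 to 6.03 at 8 weeks (median 5.65) and from 4.16 to 4.55 at 35 weeks (median 4.33), a difference of -1.35 ± 0.11 (adjusted p = 6e-05), or 2.54-fold.

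Col1a2 differed by -1.13 ± 0.11 in liver (adjusted p = 2.3e-05), by -1.37 ± 0.12 in muscle (adjusted p = 1.4e-05) and by -0.95 ± 0.09 in fat (adjusted p = 0.00018). Col3a1 ran from 4.46 to 5.51 in muscle at 8 weeks and from 2.29 to 3.45 at 35 weeks. Its age difference was -2.21 ± 0.15 in muscle (adjusted p = 4e-06), -1.44 ± 0.11 in liver (adjusted p = 4.4e-06) and -1.61 ± 0.12 in fat (adjusted p = 3.4e-05). In none of the 3 tissues did the ages overlap for Col1a1, Col1a2 or Col3a1. Every 35-week array lay below every 8-week array for 7 of 29 collagen genes in liver (3.34% of all genes), for 17 of 36 in muscle (4.46%) and for 7 of 36 in fat (1.96%).

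Col5a1 and Col5a2 encode type V collagen, which regulates the diameter of type I fibrils. Col5a2 changed by -0.66 ± 0.14 in liver (adjusted p = 0.0035), by -1.47 ± 0.12 in muscle (adjusted p = 1.1e-05) and by -1.07 ± 0.12 in fat (adjusted p = 0.00024). Col5a1 was called lower in muscle (-0.91 ± 0.09, adjusted p = 3.8e-05) and fat (-0.49 ± 0.13, adjusted p = 0.022), while its difference of -0.23 ± 0.11 in liver did not pass (adjusted p = 0.12). A further probe of Col5a1, also above background on every muscle array, differed by 0.03 with age in muscle, so the probes of this gene disagree there. Col5a3, a type V chain of restricted distribution, was called lower in muscle (-1.01 ± 0.09, adjusted p = 2.5e-05) and fat (-1.14 ± 0.27, adjusted p = 0.013), with a liver difference of 0.13 ± 0.16 (adjusted p = 0.57). Counted over the family, 10 of 10 fibrillar genes tested were called lower in muscle, 9 of 11 in fat and 6 of 10 in liver. Of all genes 14.4%, 9.34% and 15% were called lower there. These counts rest on the brightest probes, and another muscle probe of Col5a1 and of Col2a1 did not fall. The fibrillar genes had a median age difference of -1.34 in muscle, -0.98 in fat and -0.60 in liver.

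The promoters of Col1a2 and Col3a1 are shown because both genes fell in all 3 tissues. They were taken from RefSeq (GRCm38.p6), run 5′ to 3′ from 250 bases before to 50 bases after the start, and carry in capitals any match on either strand to the TATA box (letters TATAAA), the box named CCAAT, or the GC box (letters GGGCGG), of which none overlap another here. Col1a2 lies at chr6:4505368-4505667 on the + strand and Col3a1 at chr1:45311288-45311587 on the + strand.
Col1a2: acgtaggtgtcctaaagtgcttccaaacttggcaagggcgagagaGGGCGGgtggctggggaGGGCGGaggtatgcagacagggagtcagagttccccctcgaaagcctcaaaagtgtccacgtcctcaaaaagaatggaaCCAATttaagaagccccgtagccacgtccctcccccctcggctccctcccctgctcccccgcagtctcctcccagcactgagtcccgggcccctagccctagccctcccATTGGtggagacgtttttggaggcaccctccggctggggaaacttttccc
Col3a1: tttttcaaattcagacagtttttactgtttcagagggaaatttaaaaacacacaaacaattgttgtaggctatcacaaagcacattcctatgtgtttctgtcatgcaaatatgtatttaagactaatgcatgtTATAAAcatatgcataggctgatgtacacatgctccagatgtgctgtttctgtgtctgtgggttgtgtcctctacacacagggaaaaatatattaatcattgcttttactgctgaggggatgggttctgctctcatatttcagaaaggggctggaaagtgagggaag
The Col1a2 window held 2 CCAAT and 2 GGGCGG matches and no TATAAA, and the Col3a1 window held 1 TATAAA match and neither of the others. Among all 32851 promoter windows of this length, 13.6% held TATAAA, 37.4% CCAAT and 35.7% GGGCGG. Of the 35 windows of 32 collagen genes, 5 held TATAAA, 12 CCAAT and 20 GGGCGG. A match describes these letters and is not evidence of a binding site. The array's probes for these genes lie on mm8, Col1a1 at chr11:94767851-94767910 and Col3a1 at chr1:45293290-45293349, both on the + strand, and were not placed in exons or untranslated regions here.

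**Figure D1:**
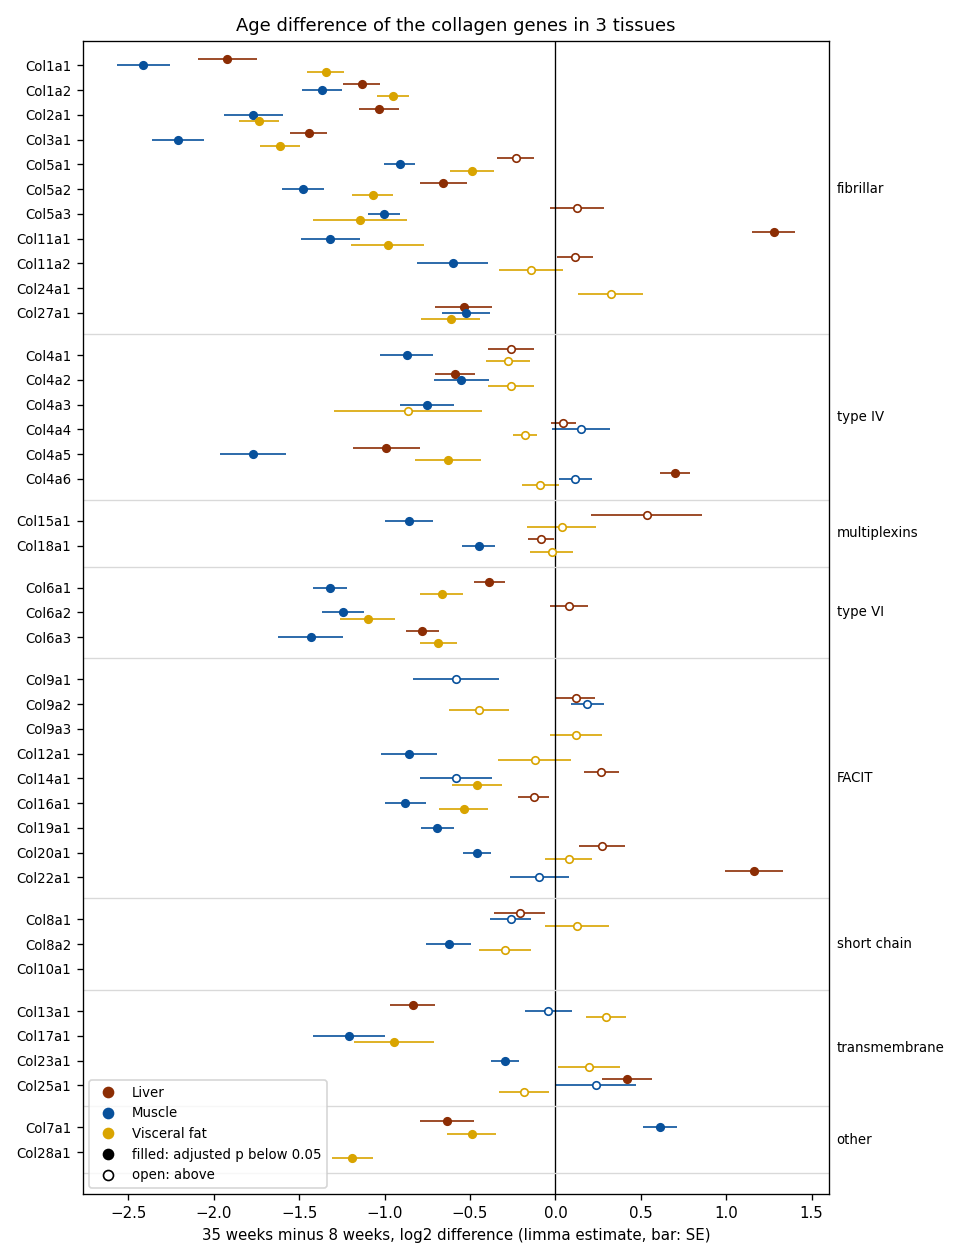
Age difference (35 weeks minus 8 weeks, log2, limma estimate with SE) of each collagen gene tested, by tissue and grouped by collagen type; filled points passed an adjusted p of 0.05 and open points did not. The fibrillar genes lie mostly left of 0, reaching -2.41 for Col1a1 in muscle, while Col11a1 in liver lies at 1.28.

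Col11a1, a minor fibrillar chain best known from cartilage, moved in opposite directions. In liver it ran from -4.89 to -4.22 at 8 weeks (median -4.51) and from -3.89 to -2.56 at 35 weeks (median -3.29). Every older liver array was thus above every younger array, and the difference was 1.28 ± 0.13 (adjusted p = 3.1e-05). In muscle the difference was -1.32 ± 0.17 (adjusted p = 0.00019) and in fat -0.98 ± 0.22 (adjusted p = 0.0089). The age difference in liver exceeded that in muscle by 2.59 ± 0.26 (adjusted p = 3.1e-08) and that in fat by 2.26 ± 0.26 (adjusted p = 3e-07). Its probe was well above background on 13 of 14 liver arrays and 12 of 14 fat arrays.

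Col2a1, the main collagen of cartilage, was also called lower in all 3 tissues, with differences of -1.03 ± 0.12 (liver), -1.77 ± 0.17 (muscle) and -1.73 ± 0.12 (fat). These values belong to its brightest probe only. Another Col2a1 probe above background on all arrays gave age differences of 1.08 in liver, 0.34 in muscle and -0.24 in fat, so the direction for this gene in liver and muscle depends on the probe. For the called collagen genes there were 24 further probes well above background on all 14 arrays of the tissue, and 21 of these had the sign of the probe used.

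**Figure D2:**
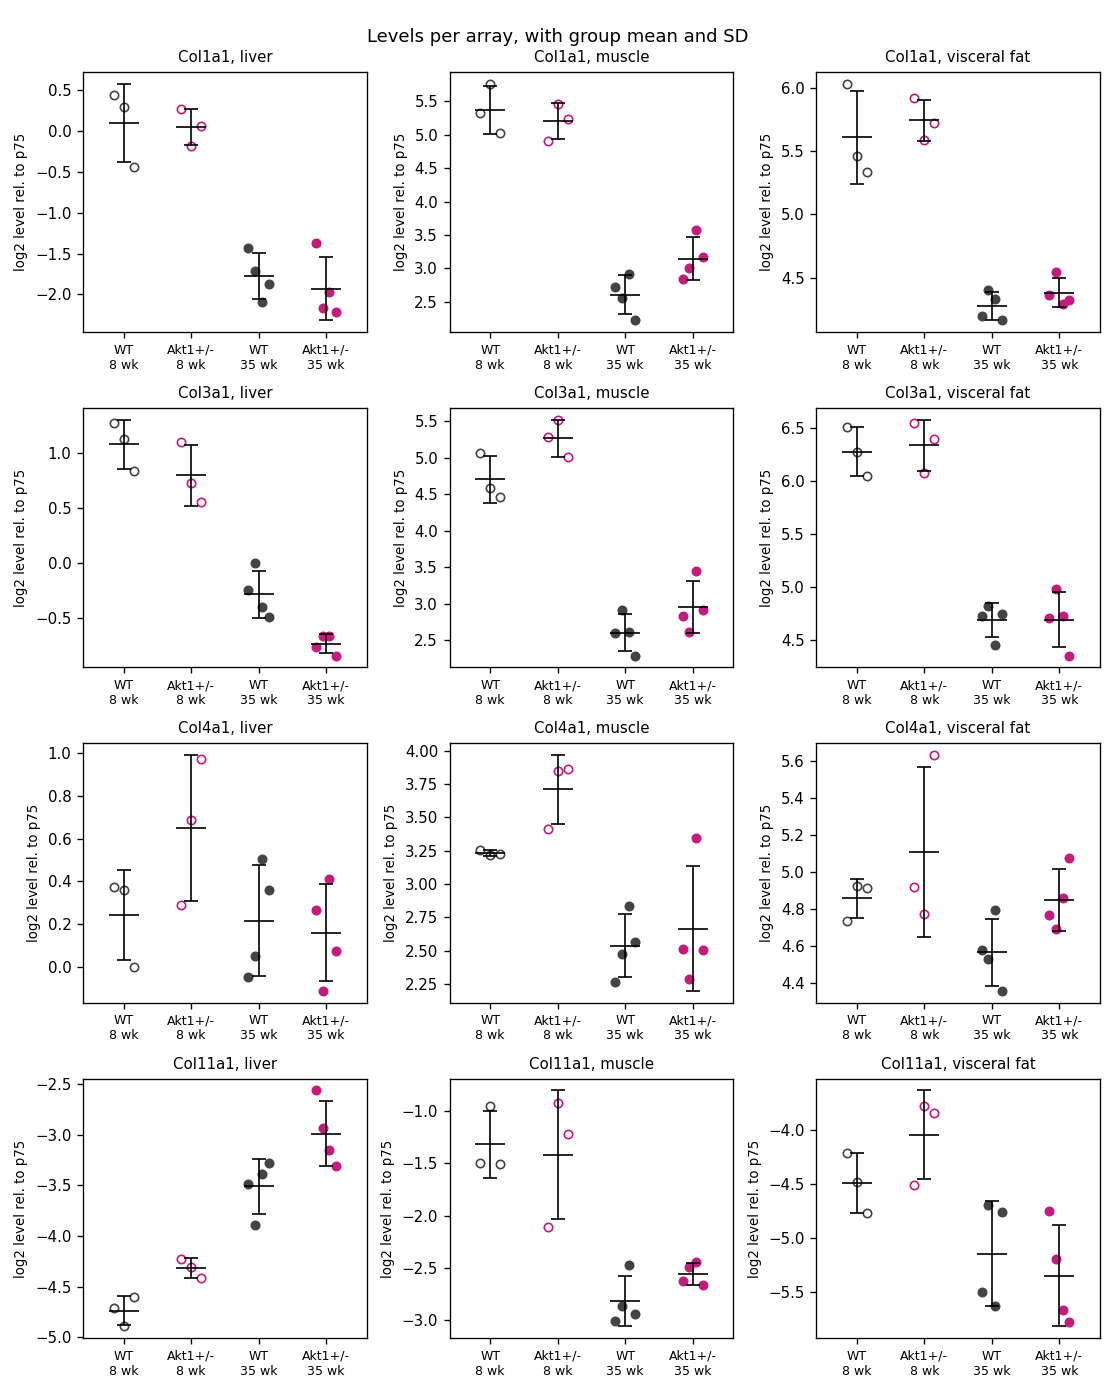
Levels (log2 signal relative to the array's 75th percentile) of Col1a1, Col3a1, Col4a1 and Col11a1 on every array of liver, muscle and visceral fat, by genotype and age, with group mean and SD (n = 3 at 8 weeks, n = 4 at 35 weeks); the vertical axes differ between panels. Col1a1 and Col3a1 at 35 weeks lie below all 8-week arrays in each tissue, Col4a1 overlaps in all 3, and Col11a1 is higher at 35 weeks in liver.

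Of the type IV collagens of the basement membrane, 4 of 6 genes tested in muscle were called lower with age, 2 of 5 in liver and 1 of 6 in fat, and 1 was called higher in liver. Of all genes, 14.4% in muscle, 15% in liver and 9.34% in fat were called lower, and 19.7% in liver higher. The fat count and the 1 higher in liver lie near these shares. The lower counts in muscle and liver include Col4a5, which entered those tests only through 8-week arrays. The type IV genes had a median age difference of -0.65 in muscle, -0.26 in liver and -0.27 in fat, and the difference from other families was not tested. Col4a1 and Col4a2 encode the chains of the ubiquitous type IV network. In muscle Col4a1 ran from 3.22 to 3.87 at 8 weeks (median 3.33) and from 2.26 to 3.35 at 35 weeks (median 2.51). The ages overlapped through 1 older Akt1+/- array at 3.35, and the difference was -0.87 ± 0.16 (adjusted p = 0.0015). In liver Col4a1 differed by -0.26 ± 0.13 (adjusted p = 0.16) and in fat by -0.28 ± 0.13 (adjusted p = 0.15). Col4a2 was called lower in liver (-0.59 ± 0.12, adjusted p = 0.0025) and muscle (-0.55 ± 0.16, adjusted p = 0.023) and differed by -0.26 ± 0.13 in fat (adjusted p = 0.19). The muscle call for Col4a2 was lost when all its probes were averaged (adjusted p = 0.066, range over the alternatives 0.0052 to 0.066).

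Col4a1 and Col4a2 are transcribed away from each other, and their promoter windows share 78 bases. They are shown because the values of this pair can be read side by side; motifs are in capitals as above. Col4a1 lies at chr8:11312777-11313076 on the - strand and Col4a2 at chr8:11312555-11312854 on the + strand.
Col4a1: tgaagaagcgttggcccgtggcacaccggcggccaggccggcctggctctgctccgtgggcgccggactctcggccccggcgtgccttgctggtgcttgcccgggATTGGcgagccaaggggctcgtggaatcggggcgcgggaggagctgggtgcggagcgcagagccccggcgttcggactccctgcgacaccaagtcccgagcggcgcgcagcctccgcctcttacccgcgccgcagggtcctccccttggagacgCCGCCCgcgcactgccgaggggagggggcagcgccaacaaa
Col4a2: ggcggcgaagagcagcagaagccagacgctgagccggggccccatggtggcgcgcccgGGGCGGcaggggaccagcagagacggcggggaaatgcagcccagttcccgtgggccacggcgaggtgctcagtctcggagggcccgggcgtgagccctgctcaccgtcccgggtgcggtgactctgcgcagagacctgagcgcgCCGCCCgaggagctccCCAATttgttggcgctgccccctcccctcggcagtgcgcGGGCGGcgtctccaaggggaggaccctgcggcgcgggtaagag
The Col4a1 window held 1 CCAAT and 1 GGGCGG match and the Col4a2 window 1 CCAAT and 3 GGGCGG matches, and neither held TATAAA.

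The minor type IV chains differed among themselves. Col4a5, a chain of kidney and smooth muscle basement membranes, was well above background on all 6 muscle arrays at 8 weeks and on none of the 8 at 35 weeks, so its level was at least 2.1-fold higher at 8 weeks (adjusted p = 6.4e-05). It was also called lower with age in fat (-0.63 ± 0.19, adjusted p = 0.039) and liver (adjusted p = 0.0023), where 3 of 6 arrays at 8 weeks and 1 of 8 at 35 weeks were well above background and no size is given. In muscle and liver Col4a5 entered the test only through 8-week arrays, so these p-values add no support to the detection counts. Col4a6, its neighbour on the X chromosome, ran in liver from -1.37 to -0.81 at 8 weeks and from -0.68 to -0.13 at 35 weeks. These did not overlap, and Col4a6 was called higher (0.70 ± 0.09, adjusted p = 0.00013) by its brightest probe, the others being well above background on 2 and 0 liver arrays. In muscle and fat Col4a6 differed by 0.12 ± 0.10 (adjusted p = 0.39) and -0.09 ± 0.11 (adjusted p = 0.6), while another probe on all muscle arrays differed there by -0.60. Among the multiplexins, Col15a1 was called lower in muscle (-0.86 ± 0.14, adjusted p = 0.00081) and differed by 0.54 ± 0.32 in liver (adjusted p = 0.22) and 0.04 ± 0.20 in fat (adjusted p = 0.92). Col18a1, the precursor of endostatin, was called lower in muscle (-0.45 ± 0.10, adjusted p = 0.0047) and differed by -0.09 ± 0.08 in liver (adjusted p = 0.41) and -0.02 ± 0.13 in fat (adjusted p = 0.93).

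All 3 type VI genes were called lower in muscle and in fat, beside 14.4% and 9.34% of all genes. In muscle Col6a1 had a median of 1.81 and a highest value of 2.01 at 8 weeks, and a median of 0.41 and a highest value of 0.74 at 35 weeks, with no overlap of the ages, and its difference was -1.32 ± 0.10 (adjusted p = 6.1e-06). Col6a2 and Col6a3 differed there by -1.24 ± 0.12 (adjusted p = 3.8e-05) and -1.43 ± 0.19 (adjusted p = 0.00022). In fat the differences were -0.67 ± 0.12 for Col6a1, -1.10 ± 0.16 for Col6a2 and -0.68 ± 0.11 for Col6a3 (adjusted p of 0.0042, 0.0011 and 0.0017 in the limma fit). In liver Col6a1 (-0.39 ± 0.09, adjusted p = 0.006) and Col6a3 (-0.78 ± 0.10, adjusted p = 0.00012) were called lower. Col6a2 differed by 0.08 ± 0.11 in liver (adjusted p = 0.61), but by -0.44 when its probes were averaged (adjusted p = 0.032).

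Outside these families, Col7a1, the anchoring fibril collagen, was the gene called higher in muscle. Its median there was 2.47 at 8 weeks and 3.13 at 35 weeks, with overlapping ages and a difference of 0.61 ± 0.10 (adjusted p = 0.00092), while in liver it was called lower (-0.64 ± 0.16, adjusted p = 0.0081). It was called lower in fat as well (-0.49 ± 0.14, adjusted p = 0.032). The muscle difference exceeded that of fat by 1.10 ± 0.20 (adjusted p = 0.00028). The brightest probe of Col22a1, a FACIT collagen of tissue junctions, was in liver well above background on none of the 6 arrays at 8 weeks and on 5 of 8 at 35 weeks, so its signal was at least 1.2-fold higher at 35 weeks (adjusted p = 0.00031). That probe entered the liver test only through 35-week arrays, so its p adds no support to the detection counts. Another Col22a1 probe, well above background on 9 of 14 liver arrays, differed by 1.05 with age. Col25a1, a transmembrane collagen of neurons, was called higher in liver by 0.42 ± 0.15 (adjusted p = 0.043), a call lost in 7 of 10 alternatives (adjusted p 0.043 to 0.92). Col28a1 in fat was well above background on 6 of 6 arrays at 8 weeks and on none of 8 at 35 weeks, at least a 1.8-fold difference (adjusted p = 0.0002). Its entry into the fat test rested on the 8-week arrays alone, so this p likewise adds no support. Col13a1, a transmembrane collagen at cell junctions, was called lower in liver (-0.84 ± 0.13, adjusted p = 0.00056).

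Of the 28 collagen genes tested in all 3 tissues, 9 were called lower in all 3, against 1.43% of the 15474 genes so tested. They included 6 of 10 fibrillar genes: Col1a1, Col1a2, Col2a1, Col3a1, Col5a2 and Col27a1. The others were Col6a1, Col6a3 and Col4a5, the last mostly below background in liver. Col4a5 entered the liver and muscle tests only through arrays of younger mice, so its calls there add no support to the count of 9. The fall was seen within each genotype. Wild-type mice had 22 collagen genes called lower with age in muscle (8.43% of all genes), 10 in liver (10.9%) and 12 in fat (6.28%). Akt1+/- mice had 21 in muscle (5.65%), 9 in liver (4.66%) and 10 in fat (4.82%), and 1 was called higher in muscle (9.09%).

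The size of the fall was compared between tissues in a fit over all 42 arrays, in which 39 collagen genes were tested. Of these, 29 were also in the liver test, and the probes of the others, such as Col19a1, were mostly below background in liver. For such genes a smaller fall in liver and a probe too dim to show a fall cannot be told apart. The age difference was called more negative in muscle than in liver for 20 genes (9.69% of all genes moved that way), and more positive for 3 (9.07%). It was more negative in fat than in liver for 10 genes (9.85%) and more positive for 1 (6.32%). Between muscle and fat it was more negative in muscle for 8 (7.77%) and more positive for 3 (8.62%). For Col1a1 the muscle fall exceeded the fat fall by 1.07 (-1.07 ± 0.22, adjusted p = 0.0011), and muscle and liver differed by 0.49 ± 0.22 without passing. Col6a2 fell more in muscle than in liver by 1.32 ± 0.20 (adjusted p = 2e-05) and more in fat than in liver by 1.18 ± 0.20 (adjusted p = 7.6e-05).

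Genes that act on collagen were counted from lists of the same pathway. Of 24 genes for collagen synthesis and processing tested in liver, 7 were called lower with age (15% of all genes) and 2 higher (19.7%). In muscle 10 of 26 were lower (14.4%) and 3 higher (16.8%), and in fat 8 of 26 were lower (9.34%) and none higher (9.95%). The median differences were -0.20, -0.24 and -0.29, beside 0.01 for all genes. Loxl2, a lysyl oxidase that cross-links collagen, was lower in all 3 tissues. Its mean fell from 2.16 to 0.48 in muscle (-1.68 ± 0.15, adjusted p = 1.4e-05), from 0.21 to -0.85 in liver (-1.06 ± 0.14, adjusted p = 0.00016) and from 3.28 to 1.53 in fat (-1.74 ± 0.16, adjusted p = 0.00015). Adamts2, which removes the amino-terminal propeptide of procollagen, was called lower in liver (-0.71 ± 0.10, adjusted p = 0.00027) and fat (-0.55 ± 0.09, adjusted p = 0.0024). Bmp1, which removes the carboxy-terminal propeptide, was called lower in muscle (-0.76 ± 0.08, adjusted p = 5.4e-05) and fat (-0.63 ± 0.09, adjusted p = 0.00087).

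Of 9 genes for collagen breakdown and its inhibitors tested per tissue, the count called lower was 2 for liver, 3 for muscle and 1 for fat, with none higher. Beside the 15%, 14.4% and 9.34% of all genes called lower, the counts in liver and fat lie near the background. Mrc2, the endocytic collagen receptor, differed by -0.71 ± 0.12 in liver, -0.84 ± 0.11 in muscle and -0.79 ± 0.11 in fat (adjusted p of 0.00072, 0.00017 and 0.00063 in limma). Mmp2, a gelatinase, was called lower in liver (-1.29 ± 0.17) and muscle (-0.88 ± 0.11). Among small proteoglycans that coat fibrils, 2 of 6 were lower and 1 higher in liver, 3 of 7 lower in muscle and 1 of 6 lower in fat, where the gene was Bgn (biglycan, -0.67 ± 0.10, adjusted p = 0.0009). Of the partners of type IV collagen in the basement membrane, 4 of 13 were lower and 2 higher in liver, 5 of 13 lower in muscle and 6 of 14 lower in fat. Nid1, the linker nidogen 1, and Lama2, a laminin chain, were lower in all 3 tissues, by -0.73 ± 0.09 and -0.48 ± 0.07 in muscle. Of the collagen receptors, 2 of 6 were lower in liver, 3 of 6 lower and 1 higher in muscle, and none of 6 was called in fat. The proteoglycan, basement membrane and receptor counts stand beside the same shares of all genes, and a count of 1 of 6 in fat lies near the background. Itga11, the integrin subunit for fibrillar collagen, differed by -0.90 ± 0.16 in liver and -0.45 ± 0.12 in muscle.

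Markers of other cells moved with age too, and their part in the collagen differences was not tested. Of the fibroblast and stellate cell markers, 2 of 6 were called lower and 1 higher in liver, 3 of 5 lower in muscle and 2 of 5 lower in fat, beside 15%, 14.4% and 9.34% of all genes called lower. Their summed linear levels overlapped between the ages in muscle, at 154.8 to 217 at 8 weeks and 169 to 209 at 35 weeks, and in fat, at 319.6 to 426 and 297 to 422. In liver they ran from 67.9 to 90.6 at 8 weeks and from 80.04 to 102 at 35 weeks. Lrat, a defining marker of hepatic stellate cells, was well above background on every liver array. In muscle 3 of 5 adipocyte markers were called higher at 35 weeks, with summed levels of 132 to 278 at 8 weeks and 149 to 277 at 35 weeks, and 3 of 4 blood markers lower.

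Genotype moved few collagen genes. In liver 3 of 29 were called between Akt1+/- and wild-type over both ages, where 6.03% of all genes were (1 lower beside 2.46%, 2 higher beside 3.57%). In fat 2 of 36 were called (0.827% of all genes). In muscle none of 36 was called, nor was any other gene (0%). The count there at an unadjusted p below 0.05 in limma was 5 of 36 collagen genes and 3166 genes in all (18.4%). The fit over all 42 arrays called 1 collagen gene for genotype in muscle. The lowest p in muscle was for Col2a1 (0.60 ± 0.17, adjusted p = 0.15).

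In fat Col24a1, a fibrillar collagen of bone and cornea, was lower in Akt1+/- mice. At 8 weeks the wild-type arrays read -2.78, -2.06 and -2.45 and the Akt1+/- arrays -3.22, -3.69 and -3.42. At 35 weeks the wild-type arrays read -2.38, -1.20, -1.46 and -1.66 and the Akt1+/- arrays -3.78, -3.21, -3.84 and -3.38. The genotypes overlapped at neither age, and the difference over both ages was -1.45 ± 0.19 (adjusted p = 0.0069), or 2.73-fold. At 35 weeks it was -1.88 ± 0.25 (adjusted p = 0.0019). On the slide that held both genotypes at 8 weeks the 3 Akt1+/- arrays lay below the wild-type array by -0.99. The call held when any array was left out. It was lost in the fit over all 42 arrays (adjusted p = 0.055) and with the replicate number as a block (adjusted p = 0.067), with a range over the alternatives of 0.0044 to 0.067. A further Col24a1 probe was not well above background on any fat array. Of 9 ovary and oocyte markers 1 was well above background on every fat array and 3 to 7 on no array of a group, with summed levels of 0.307 to 0.520 over all groups; Zp1 and Zp2 were on no fat array, Oosp1 was on none at 8 weeks, and their part was not tested. At 35 weeks 3 marker lists did not overlap between the genotypes in fat, as summed linear levels, while the other lists did. With so few arrays per group a list can fail to overlap by chance, and how many would do so was not worked out. Fibroblast and stellate cell markers ran from 297 to 339 in Akt1+/- mice against 364 to 422, adipocyte markers from 1188 to 1434 against 1476 to 1714, and smooth muscle markers from 122 to 212 against 83.3 to 119.6. Their part in the differences of Col24a1 and Col2a1 at that age was not tested. At 35 weeks each genotype in fat had its own slide and scan day, which cannot be told apart from genotype for either gene.

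Also in fat, Col2a1 differed by genotype and by the interaction of genotype and age, as measured by its brightest probe. At 8 weeks the wild-type arrays read 1.17, 0.76 and 1.04 and the Akt1+/- arrays 1.67, 1.07 and 1.43. At 35 weeks the wild-type arrays read 0.27, 0.33, 0.00 and 0.25 and the Akt1+/- arrays -1.29, -1.09, -1.21 and -1.60. All 4 older Akt1+/- arrays lay below all 4 older wild-type arrays (-1.51 ± 0.15, adjusted p = 0.00029). The interaction was -1.91 ± 0.23 (adjusted p = 0.0018). The other probe above background differed by -0.54 at 35 weeks. The genotype call over both ages (-0.56 ± 0.12, adjusted p = 0.048) was lost in 6 of 11 alternatives and in 10 of 14 leave-one-out fits (adjusted p up to 0.11), while the interaction passed in all of them. Of 5 tendon and cartilage markers 4 were well above background on every fat array, with summed levels of 0.324 to 0.601 at 8 weeks and 0.463 to 1.38 at 35 weeks. Col13a1 in fat was higher in Akt1+/- mice at 8 weeks (1.04 ± 0.18, adjusted p = 0.038), where the wild-type arrays read -2.62, -2.95 and -2.93 and the Akt1+/- arrays -1.73, -1.88 and -1.77. At 35 weeks it differed by -0.16, and the interaction was -1.20 ± 0.24 (adjusted p = 0.03). The interaction of Col13a1 was lost in 8 of 14 leave-one-out fits (adjusted p up to 0.097). On the shared slide at 8 weeks Col13a1 was higher in Akt1+/- mice by 1.14. Summed marker levels in the same 8-week fat arrays were also higher in Akt1+/- mice without overlap for epithelium (9.25 to 15.2 against 3.64 to 6.95), mesothelium (32.9 to 48.7 against 20.9 to 30.4), macrophages (44.7 to 60.5 against 37.5 to 40.3) and lymphocytes (2.98 to 3.80 against 2.47 to 2.69) and lower for tendon and cartilage (0.324 to 0.400 against 0.406 to 0.601), and their part was not tested. The other marker lists overlapped in these arrays, and the number expected by chance was not worked out. For the interaction in fat Col2a1 and Col13a1 were the 2 of 36 called, beside 1.54% of all genes.

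In liver the 3 genes called for genotype were Col27a1, Col4a5 and Col11a1. Col27a1, a fibrillar collagen of cartilage, read -1.48, -1.44 and -1.59 on the wild-type arrays at 8 weeks against -2.26, -2.85 and -2.72 on those of Akt1+/- mice. At 35 weeks the genotypes overlapped, with wild-type arrays at -2.50, -1.88, -2.90 and -2.40 and Akt1+/- arrays at -2.92, -2.27, -3.11 and -2.79. The difference over both ages was -0.73 ± 0.17 (adjusted p = 0.03). Col11a1 was higher by 0.47 ± 0.13 (adjusted p = 0.048). Col4a5 was called higher (adjusted p = 0.047) but was well above background on no wild-type liver array and on 4 of 7 Akt1+/- arrays, which gives no fold. It entered the liver test only through 8-week Akt1+/- arrays, so this p adds no support to the detection counts. None of the 3 calls held with the slide as a random block, when no collagen gene was called, and scaling to the median called 5 genes, all lower. With 1 array left out, Col27a1 was called in 5 of 14 fits, Col11a1 in 1 and Col4a5 in 1. At 8 weeks the summed marker levels of liver did not overlap between the genotypes for hepatocytes (1065 to 1241 in Akt1+/- mice against 1369 to 1533), macrophages (20.5 to 24.4 against 12.8 to 17.5), lymphocytes (2.03 to 2.31 against 1.41 to 1.74), adipocytes (22.4 to 105 against 10.9 to 13.4) and mesothelium (0.257 to 0.638 against 0.640 to 0.956), and their part was not tested. The other marker lists overlapped in liver at 8 weeks, and the number expected by chance was not worked out. For the interaction in liver Col9a2, a FACIT chain of cartilage, was the 1 of 29 called (1.22 ± 0.23, adjusted p = 0.039), beside 0.541% of all genes. At 8 weeks it read -2.18, -2.19 and -1.86 on the wild-type arrays against -2.55, -2.54 and -2.64 on those of Akt1+/- mice, and -2.17, -2.82, -2.62 and -2.65 against -1.57, -1.86, -2.11 and -1.85 at 35 weeks. Genotypes did not overlap at either age, and their order was opposite, but the call held in only 2 of 14 leave-one-out fits (adjusted p up to 0.11). Exocrine pancreas markers in liver at 35 weeks also did not overlap, with summed levels of 0.620 to 0.723 in Akt1+/- mice against 0.365 to 0.522, and their part was not tested. Of these 5 markers 4 were well above background on no wild-type array and 2 on no Akt1+/- array at that age, so the sums hold signal near background. In muscle no collagen gene was called for the interaction, nor any gene (0%). The count there at an unadjusted p below 0.05 in limma was 6 of 36 collagen genes and 1450 genes in all (8.45%).

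At each age apart, 2 of 29 collagen genes were called in liver at 8 weeks (2.17% of all genes), Col11a2 and Col27a1, both lower in Akt1+/- mice (0.974%). The probes of Col11a2 disagree, since over both ages the brightest differed by -0.29 and another, well above background on all 14 liver arrays, by 0.36. At 35 weeks 3 of 29 were called there (3.44%), all higher (3.24%), Col9a2, Col22a1 and Col4a5. Of these, Col4a5 was well above background on 1 of 4 Akt1+/- arrays and no wild-type array at that age, and entered the liver test only through 8-week Akt1+/- arrays. Col22a1 was well above background on 5 of the 8 older liver arrays, so both calls lie near the detection limit. In fat 1 of 36 was called at 8 weeks (1.88%) and 2 of 36 at 35 weeks (1.69%), all named above. Col1a1 and Col3a1 did not pass for genotype in any tissue. Col1a1 differed by -0.10 ± 0.17, 0.19 ± 0.16 and 0.12 ± 0.11 and Col3a1 by -0.36 ± 0.11, 0.46 ± 0.15 and 0.03 ± 0.12 (liver, muscle, fat). In liver Col3a1 (adjusted p = 0.065) did pass as lower in Akt1+/- mice after scaling to the median (adjusted p = 0.013) and without the 8-week Akt1+/- replicate 1 (adjusted p = 0.032), with a range of 0.013 to 0.14 over the alternatives and left-out arrays.

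**Figure D3:**
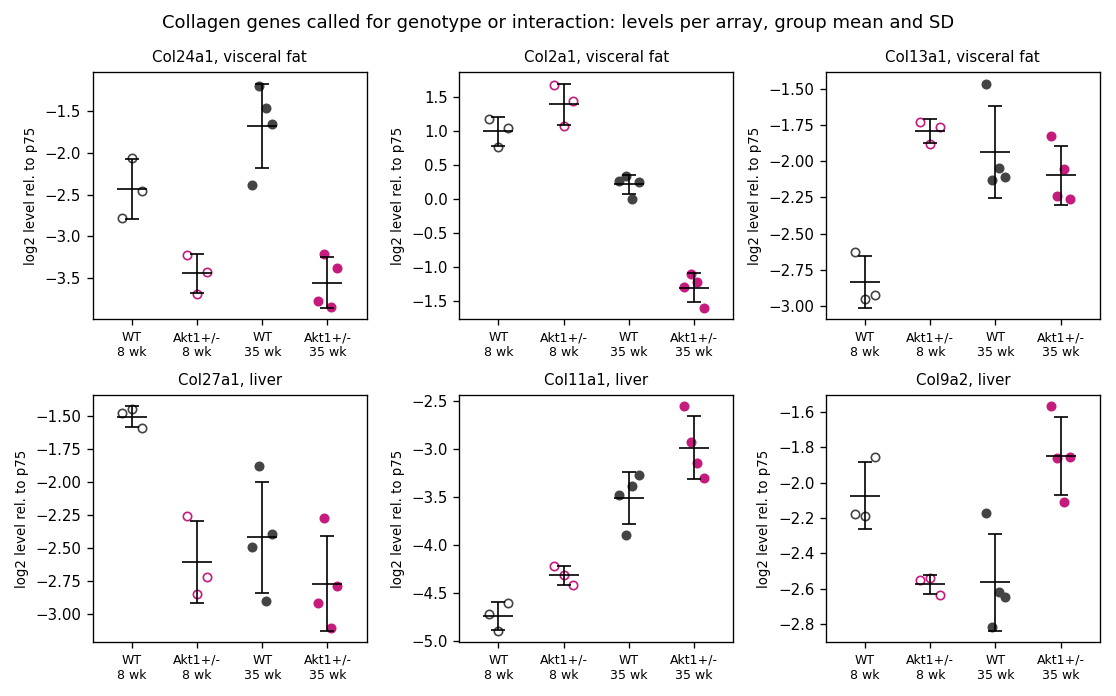
Levels (log2 signal relative to the array's 75th percentile) on every array of 6 collagen genes called for genotype or for the interaction, in visceral fat (Col24a1, Col2a1, Col13a1) and liver (Col27a1, Col11a1, Col9a2), with group mean and SD (n = 3 at 8 weeks, n = 4 at 35 weeks); the vertical axes differ between panels. In fat Col24a1 is lower in Akt1+/- mice at both ages and Col2a1 at 35 weeks, and Col9a2 in liver changes order between the ages.

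Tissues were compared over all arrays. Of 39 collagen genes tested, 31 were lower and 5 higher in liver than in muscle (85.8% of all genes differed in either direction), 25 were lower and 9 higher in liver than in fat (86.2%), and 24 were lower and 14 higher in muscle than in fat (87.6%). In either direction the shares are close to those of all genes. By direction, 45.2% of all genes were lower and 40.6% higher in liver than in muscle. These shares were 41.9% and 44.2% for liver against fat, and 43.7% and 43.9% for muscle against fat. In each comparison the collagen calls leaned further to the lower side than those of all genes, which was not tested. The median differences were -2.10, -1.83 and -0.92, beside -0.06, 0.04 and 0.01 for all genes.

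The main fibrillar, type IV and type VI chains followed the order fat, muscle, liver. Col1a1 had a mean of 4.90 ± 0.72 in fat, 3.91 ± 1.29 in muscle and -1.03 ± 1.03 in liver (SD, n = 14 each). It was 31.4-fold lower in liver than in muscle (-4.97 ± 0.11, adjusted p = 2e-29) and 1.89-fold lower in muscle than in fat (-0.92 ± 0.11, adjusted p = 2.8e-09). The arrays of fat and muscle overlapped, since the level also moved with age. Col3a1, Col1a2, Col5a1 and Col5a2 had the same order, as had Col4a1, Col4a2 and the 3 type VI genes. Col4a1 was 4.83 ± 0.30 in fat, 2.97 ± 0.55 in muscle and 0.30 ± 0.30 in liver, and fat, muscle and liver arrays did not overlap. Col15a1 followed the same order, at 2.24 ± 0.40, -0.83 ± 0.53 and -3.51 ± 0.75.

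Other members had another order. Col18a1 was highest in liver at 7.51 ± 0.16, against 4.30 ± 0.21 in fat and 1.28 ± 0.31 in muscle, with no overlap, and was 73.8-fold higher in liver than in muscle (6.21 ± 0.07, adjusted p = 4.1e-37). Col13a1 was also higher in liver, 15.2-fold over muscle and 8.44-fold over fat. The brightest probes of Col27a1 and Col4a6 were higher in liver than in either other tissue. For Col27a1 another probe gave the same order, and the remaining one read -4.95 in liver (8 of 14 arrays well above background) and -4.90 in fat (14 of 14). The tissue order of Col4a6 depends on the probe, since another read 0.43 in fat and -3.15 in muscle, well above background on all 14 arrays of each, and -5.38 in liver, where 2 arrays were. The brightest probe of Col22a1 was 3.18 ± 0.34 in muscle, where every array was well above background, while 5 liver and 2 fat arrays were, so no size is given for it. Another Col22a1 probe read -0.31 in muscle (14 of 14 arrays well above background), -4.26 in liver (9 of 14) and -5.20 in fat (12 of 14), and was thus also highest in muscle. Col7a1 was higher in muscle than in fat by 3.81 ± 0.10. Col19a1, a FACIT collagen of muscle, was well above background on all muscle arrays and on no liver array, at least 3.8-fold higher. Col14a1, a FACIT collagen, differed between liver and fat by -0.00 ± 0.12 (adjusted p = 0.98) and was lower in muscle than in either. Col24a1 was well above background on every fat array but on 1 liver and 3 muscle arrays, although its other probe was above background on all 14 muscle arrays, so the tissue pattern of this gene depends on the probe.

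**Figure D4:**
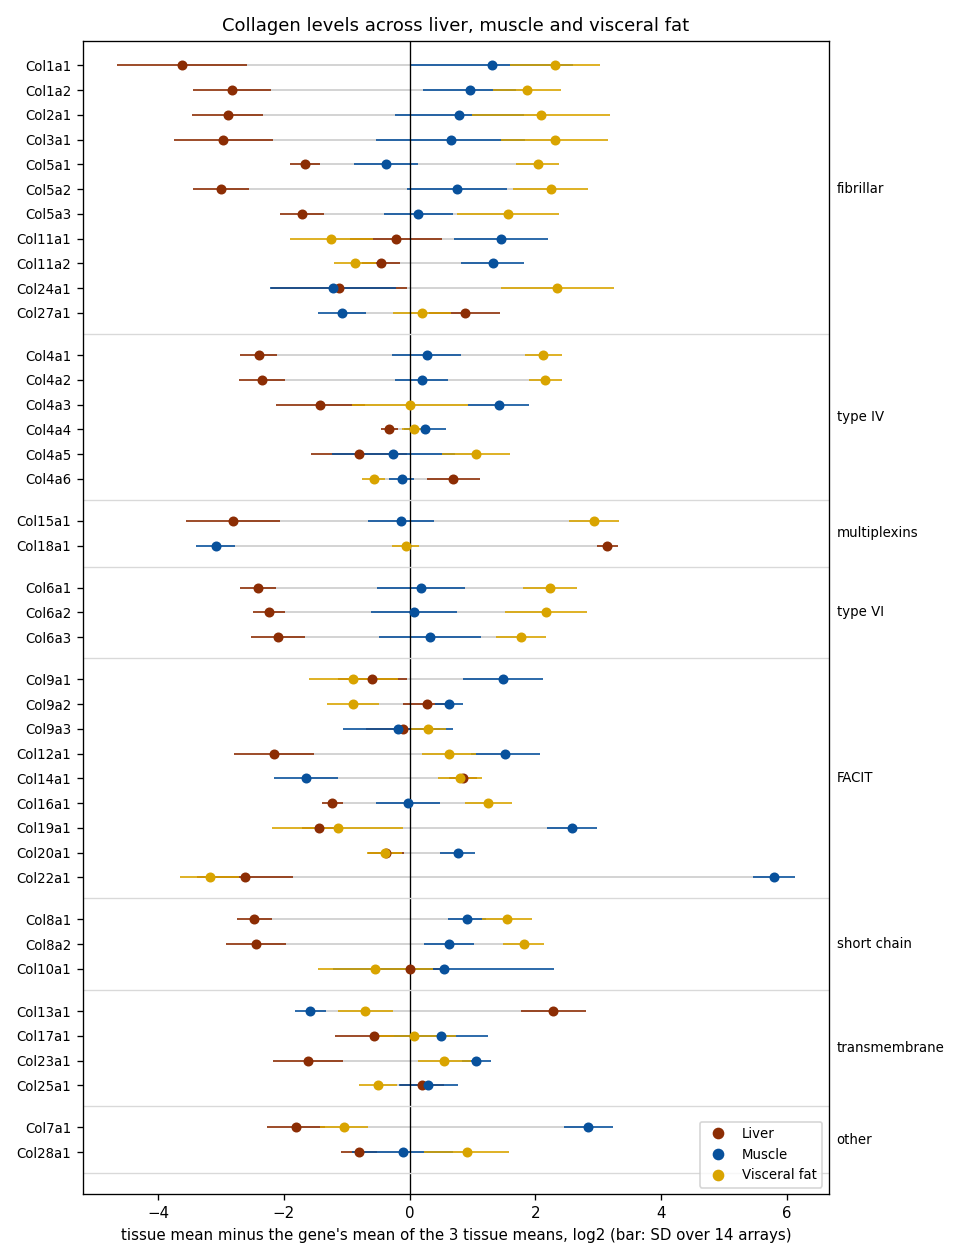
Mean level of each collagen gene in liver, muscle and visceral fat, as the log2 difference from the gene's own mean of the 3 tissue means, with SD over 14 arrays per tissue, grouped by collagen type. Liver lies lowest for most fibrillar, type IV and type VI genes, while Col18a1 and Col13a1 are highest in liver and Col22a1 and Col7a1 in muscle.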

How the data were processed

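The authors hybridised Cy3-labelled RNA on Agilent whole mouse genome arrays and deposited, for each of 42 arrays, the scanner output of Feature Extraction (9.5.3.1 in the file headers, 9.1 in the submitters' processing notes; probes placed on mm8). Per the file headers its processed signal is a background-subtracted intensity on a linear scale. The authors also deposited a table of log2 values, which equalled the log2 processed signal scaled to each array's 75th percentile and served as an alternative. For this report outlier-flagged spots were dropped, spots of a probe averaged on the log2 scale, and each array's 75th percentile (intensity 274 to 795) subtracted. One probe per gene was taken, the brightest over all arrays. A tissue's test kept genes detected on 3 or more arrays of some group.

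Each tissue was fitted in limma 3.58.1 (R 4.3.3) with 4 group means, and tissues were compared in a fit over all 42 arrays with 12. P-values were adjusted by Benjamini-Hochberg over all genes tested, at 0.05. The scripts were tested on simulated data. The precision is limited by the number of arrays. Groups came from the labels, which give 35 weeks where the study's methods give an older age. The named genes were 12 main chains in all tissues plus the members that passed in a tissue for genotype, age or interaction, up to 10 per comparison by lowest p, or the member with the lowest p where none passed, with up to 3 per comparison from the other lists; Col7a1 and Col25a1 for age, the genes called at a single age, and those singled out between tissues were chosen after their values were seen. Members and lists were chosen with earlier results of these data known. Alternatives were another background correction and normalization, median scaling, the authors' table, 2 filters, 2 probe rules, blocks for replicate number (random, within age, for age) and slide, a fit over all arrays, the methods' two-way test and leaving out each array.

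Replicate numbers were checked for pairing: within a tissue and age, the deviations from the group mean of same-numbered wild-type and Akt1+/- arrays correlated between -0.20 and 0.07 over 9 pairs at 8 weeks and between 0.11 and 0.52 over 12 pairs at 35 weeks, so the numbers do not pair the arrays throughout.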

Additional observations from a re-analysis of the deposited data

Results flagged for a closer look

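In 5 of 86 groups of 4 arrays examined, 1 array stood far from the other 3, and chance gives this in about 1 group in 20. In liver Col1a2 read 1.47 on Akt1+/- replicate 1 at 35 weeks, against 1.09 to 1.12 on the others. In muscle Col6a3 read 2.01 on Akt1+/- replicate 3 at 35 weeks, against 1.16 to 1.31. In fat at 35 weeks Col6a1 read 3.15 on wild-type replicate 2 (others 2.54 to 2.64), Col13a1 -1.46 on wild-type replicate 1 (others -2.13 to -2.04) and Col15a1 1.39 on Akt1+/- replicate 1 (others 2.57 to 2.72).

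The genotype difference changed between 8 and 35 weeks, by a test of the interaction in limma, for Col2a1 in fat (-1.91, adjusted p = 0.0018), Col13a1 in fat (-1.20, adjusted p = 0.03) and Col9a2 in liver (1.22, adjusted p = 0.039).

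The age difference was tested between tissues in limma. In liver minus muscle it was 2.59 for Col11a1, 1.39 for Col15a1, 0.77 for Col3a1, 0.61 for Col4a1, 0.68 for Col5a1, 0.82 for Col5a2, 0.93 for Col6a1, 1.32 for Col6a2, 0.65 for Col6a3 and -1.25 for Col7a1. In liver minus fat it was 2.26 for Col11a1 and 1.18 for Col6a2. In muscle minus fat it was -0.43 for Col18a1, -1.07 for Col1a1, -0.60 for Col3a1, -0.59 for Col4a1, -0.65 for Col6a1, -0.75 for Col6a3 and 1.10 for Col7a1. The adjusted p of these 19 differences ran from 3.1e-08 to 0.047.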

How the results depend on the processing

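The counts of genes called for age stayed within 1.5 times of the reported ones under every alternative, with more lower than higher calls in each, at 11 to 20 genes in liver, 25 to 28 in muscle and 15 to 19 in fat. Of the called members, 12 of 16 in liver, 21 of 27 in muscle and 11 of 18 in fat kept call and sign in every fit that tested them. These fits were the alternatives and the leave-one-out fits, and a gene that a filter removed was not counted as lost. With the filter of well above background on all arrays, 11 of these members in liver, 24 in muscle and 15 in fat were still called.

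The liver count for genotype, 3, was 1 with normexp and quantile normalization, 1 with a filter of well above background on all arrays, 1 in the methods' two-way test after adjustment, 5 with median scaling, 5 with the brightest probe in each tissue, 0 with no filter and 0 when slides entered as a random block. The liver interaction count, 1, was 0 with no filter, the replicate block, the slide block or the methods' test, and 2 in the fit over all 42 arrays. The muscle genotype count, 0, was 1 in that fit. The fat genotype count, 2, was 1 with normexp and quantile, median scaling, no filter, the mean of all probes, the methods' test or the fit over all 42 arrays, and 0 with the replicate block. The fat interaction count, 2, was 1 with no filter or the mean of all probes. With the filter on all arrays, which left 22 members, tissue counts were 22 for liver and muscle, 20 for liver and fat, and 21 for muscle and fat. Leaving out 1 array at a time gave, in liver, 0 to 3 genes for genotype, 14 to 17 for age and 0 to 1 for the interaction, in muscle 0 to 0, 25 to 28 and 0 to 0, and in fat 1 to 2, 12 to 19 (12 without the 8-week Akt1+/- replicate 1) and 1 to 4 (4 without the 8-week wild-type replicate 3). Between tissues it gave 36 to 36 for liver and muscle, 34 to 35 for liver and fat, and 37 to 39 for muscle and fat. The replicate numbers are shared without a stated pairing, and the block values are those given here. In liver the replicate block also called 3 genes for genotype, but only 1 of the 3 reported, and called Col3a1 lower (adjusted p = 0.042, against 0.065 without it), while in fat Col24a1 lost its genotype call (adjusted p = 0.067). Where a filter left fewer genes the number tested fell, and otherwise the cause was not tested.

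Values that turned sign were the liver age differences of Col25a1 (-0.0065 with normexp and quantile), Col2a1 (1.08 with the brightest probe in each tissue, 0.023 with the mean of all probes) and Col6a2 (-0.44 with the mean of all probes, which was then called). Dim probes, such as Col4a5 and Col22a1 in liver, limit what the arrays can show.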
